A study of Mus musculus with 12 samples.

Results

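Cytosolic ribosomal protein genes encode the proteins of the ribosomes outside mitochondria. They were taken as the protein-coding mouse genes with symbols that begin with Rpl or Rps and a number, together with *Rplp0*, *Rplp1*, *Rplp2* and *Rpsa*, while Rps6k kinase genes, *Rps19bp1* and symbols with -ps, which name pseudogenes, were left out. This gave 85 genes among 47643 gene identifiers, 52 of the large and 33 of the small ribosomal subunit, and 83 of them had at least 1 count.

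Both cell populations came from the brains of 5 old male p16-3MR mice on a C57BL/6 background, aged 113, 115, 116, 116 and 116 weeks (mice 1 to 5). In this strain the p16 promoter drives a fused reporter that holds a viral thymidine kinase, a luciferase and a red fluorescent protein (RFP). The mice received no treatment named in the labels. From each mouse, viable brain cells with low or no fluorescence (RFPneg) and with high fluorescence (RFPpos) were sorted after digestion in the cold, so that the question was how the populations differed within a mouse. Bulk 3′ libraries, which give a tag near the end of each transcript, were counted per gene, with totals of 177287 to 415834 counts for RFPneg and 222560 to 289713 for RFPpos. Gene levels are given as CPM, each count divided by the total on genes and multiplied by 1000000, after scaling of the totals by the trimmed mean of M values (TMM). Since 1 tag stands for 1 transcript, CPM was not divided by transcript length.

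The labels were first set against marker genes. All 20 of the microglia genes listed were called higher in RFPpos with TMM scaling, and their share of counts was 2.14% ± 0.437 (SD, n = 5) in RFPneg and 4.45% ± 0.423 (SD, n = 5) in RFPpos. *Cdkn2a*, which encodes p16 and a second protein from an overlapping frame, had 8 counts in the RFPneg samples together and 0 in the RFPpos samples, where a count of 0 allows up to 3. These few counts ran opposite to the label. The paper reports that sorting for high RFP enriched cells with much p16 transcript. The level of the reporter itself was not measured here.

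A ribosome is built from a small subunit, which reads the messenger RNA, and a large subunit, which joins the amino acids. Each holds ribosomal RNA and many small basic proteins, nearly all present in a single copy, so that cells make them in matched amounts. Their messenger RNAs are among the most abundant and stable of most cells and are described as beginning with a C and a run of pyrimidines, the terminal oligopyrimidine (TOP) motif, through which mTOR signalling and LARP1 adjust their translation.

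The start of these transcripts is shown first, since the choice of members did not use it. In the RefSeq promoter table for GRCm38.p6, 65 of the 85 genes were matched, with 77 start sites. A C at the annotated start followed by at least 4 pyrimidines was found at 14 of these 77 sites (18.2%), against 2.51% of 32851 start sites of all genes. CCGGAAG, searched on both strands from 250 bases before to 50 after the start, was found at 35.1% of the sites of the family and 8.86% of all sites, and AAGATGG, searched likewise, at 15.6% and 6.34%. Both motifs share the letters AAG, so that they can overlap. TATAAA, searched on the strand of the gene from 40 to 20 bases before the start, was found at 1.30% and 1.87%. The 5 genes with a TOP motif at an annotated start that were called lower in RFPpos are given with 40 bases before the start and the first 20 bases from it, with the run of pyrimidines from the start on in capitals, in 5′ to 3′ direction.
*Rpl38* (chr11:114668540-114668599, plus strand): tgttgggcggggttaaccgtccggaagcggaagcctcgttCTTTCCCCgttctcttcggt
*Rplp2* (chr7:141447611-141447670, plus strand): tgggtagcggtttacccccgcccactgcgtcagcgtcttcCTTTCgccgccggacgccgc
*Rps15a* (chr7:118116128-118116187, minus strand): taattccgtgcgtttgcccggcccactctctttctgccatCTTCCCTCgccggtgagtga
*Rps21* (chr2:180257339-180257398, plus strand): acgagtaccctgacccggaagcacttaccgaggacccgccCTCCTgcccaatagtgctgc
*Rps27* (chr3:90213629-90213688, minus strand): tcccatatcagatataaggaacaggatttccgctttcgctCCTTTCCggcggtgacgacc
The runs held 8 pyrimidines in *Rpl38* and *Rps15a*, 7 in *Rps27* and 5 in *Rplp2* and *Rps21*.

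Although their proteins are made in matched amounts, the levels counted for these genes were far apart. *Rps29*, *Rps21* and *Rplp1* had the highest mean levels over the 10 samples, 1850.2, 1669 and 1383 CPM. Among the tested genes *Rpl15*, *Rpl22l1* and *Rps6* had the lowest, 34, 40.9 and 41.1 CPM. *Rpl24* had 1 count in all samples. Many of these genes have processed pseudogenes of nearly the same sequence, and reads that aligned to several places are listed at 0 in every sample, so that levels of genes with close copies are uncertain. Of the windows of 50 bases in the last 200 bases of their transcripts, the share that also occurred in other annotated genes was 100% for *Rpl10* and *Rpl36a*, 72.2% for *Rps6* and 68.9% for *Rpl24*, but 39.7% for *Rps29* and 19.9% for *Rps21*. Across the 85 genes, which are not independent replicates, the rank correlation of mean CPM with this share was −0.07.

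The whole family took a smaller part of the counts in RFPpos cells. In mice 1 to 5, these genes held 3.08, 2.95, 3.49, 3.03 and 3.35% of the counts on genes in the RFPneg samples. In the RFPpos samples of the same mice they held 2.36, 2.69, 2.89, 2.94 and 1.91%. The share was lower in RFPpos in 5 of 5 mice and the groups did not overlap, but the highest RFPpos sample, mouse 4, almost reached the lowest RFPneg sample, mouse 2. The means were 3.18% ± 0.229 (SD, n = 5) and 2.56% ± 0.426 (SD, n = 5), and the mean difference within mice was −0.62 ± 0.521 percentage points (SD, n = 5). The RFPpos sample of mouse 5 was the lowest of all, and without mouse 5 the mean difference was −0.42 percentage points. Without the cell type marker genes, or without the member of highest count, the groups overlapped, while the share stayed lower in 5 of 5 mice. In bulk samples, fewer cells of a type that makes much of these transcripts and less of them per cell cannot be told apart.

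The small subunit genes made up more of this difference, −0.37 percentage points, than the large subunit genes, −0.25. Large subunit genes held 1.55% ± 0.0947 (SD, n = 5) of the counts in RFPneg and 1.29% ± 0.226 (SD, n = 5) in RFPpos, lower in 5 of 5 mice but with overlapping groups. Small subunit genes held 1.63% ± 0.135 (SD, n = 5) and 1.27% ± 0.203 (SD, n = 5), lower in 5 of 5 mice and without overlap. For each 100 counts on large subunit genes, the RFPneg samples of mice 1 to 5 had 107, 104, 109, 102 and 107 on small subunit genes. The RFPpos samples had 95.4, 99.2, 93.5, 100.1 and 103, lower than the RFPneg sample of the same mouse in 5 of 5 mice. The RFPpos sample of mouse 5 lay above the RFPneg sample of mouse 4, so that the groups overlapped.

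**Figure D1:**
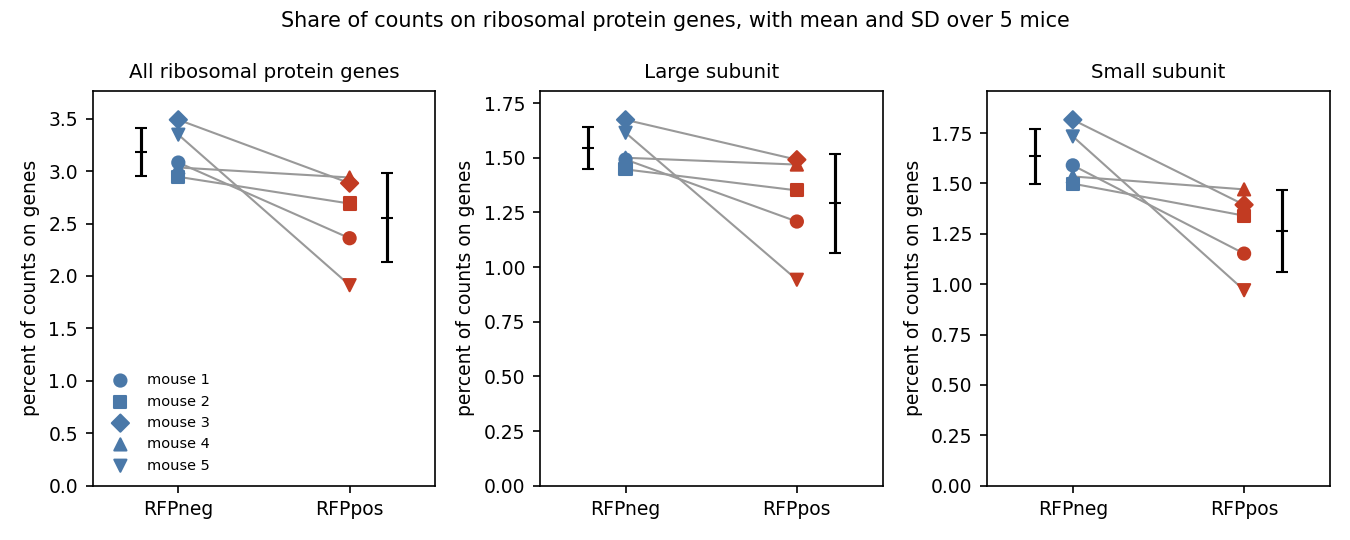
Percent of the counts on genes that fell on ribosomal protein genes, on the vertical axis, for the RFPneg and RFPpos sample of each of 5 mice, joined by lines, with the mean and SD beside the points. Every line falls, from a mean of 3.18% to 2.56% for the whole family, and mouse 5 has the lowest RFPpos value in each panel.

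Single genes were tested with edgeR's quasi-likelihood test with the mouse as a block, fitted to all 4210 genes with enough counts, and called at a Benjamini-Hochberg adjusted p under 0.05 without a fold threshold. Of the 85 genes, 78 were tested. All 14 that were called were lower in RFPpos (17.9% of those tested), where 489 of all 4210 genes (11.6%) were lower. With a log2 fold change above 1 also required, this turned round, with 2 of the 78 (2.56%) and 385 of all genes (9.14%) lower. None of the 78 was higher, also at an unadjusted p under 0.05 and with the likelihood ratio test, DESeq2 or limma-voom, while 427 of all genes (10.1%) were higher. The median log2 fold change of the 78 genes was −0.29, and that of all tested genes −0.03. A log2 fold change below 0 was found for 66 of them (84.6%), against 52.4% of all genes. Level was lower in RFPpos in all 5 mice for 20 of the 78 genes (25.6%) and for 16.7% of all tested genes, and all RFPpos samples lay below all RFPneg samples for 9 of the 78 (11.5%) and for 8.72% of all tested genes.

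By subunit, 9 of 32 tested small subunit genes (28.1%) were called lower, with a median of −0.33, and 5 of 46 large subunit genes (10.9%), with a median of −0.21. The large subunit genes were thus not called lower more often than all genes (11.6%). Whether the subunits differed was not tested. The median of the family was below 0 under each scaling tried, and the number of calls was not the same. When the totals were set by the counts of the 20 microglia genes, this shifted the median of all genes by −1.07. All 78 genes of the family were then below 0 and 77 (98.7%) were called lower, against 70.1% of all genes. The median of the family lay −0.27 from that of all genes, as against −0.27 with TMM. With totals that include reads on no gene, the shift was −0.15, with 17 calls in the family (21.8% of those tested), against 13.8% of all genes. Testing every gene of at least 1 count shifted the median of all genes by −0.22. In that fit 9 of 83 genes of the family (10.8%) were called lower, against 4.49% of all genes. The median of the family, −0.22, was then no longer below that of all genes, −0.25.

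**Figure D2:**
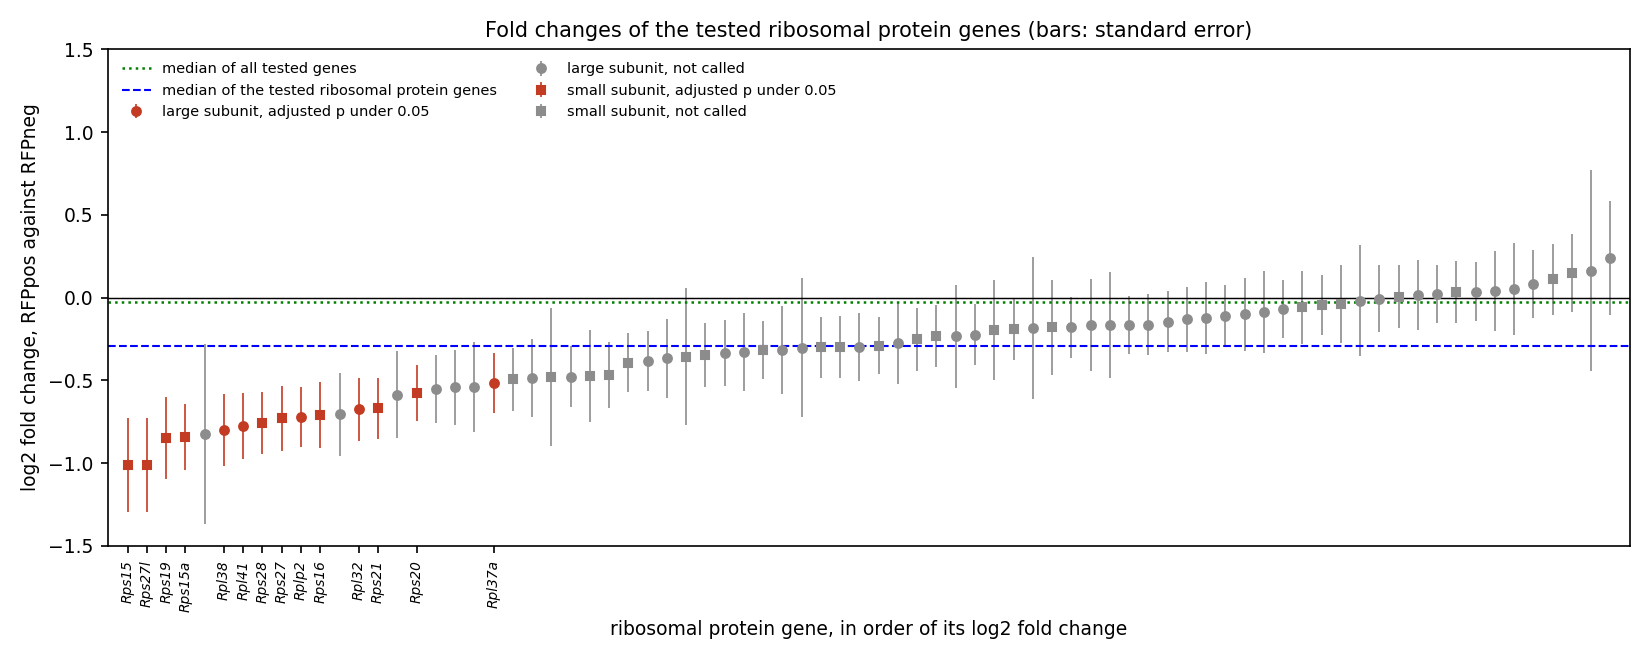
Log2 fold change of RFPpos against RFPneg, on the vertical axis, with its standard error for each of the 78 tested ribosomal protein genes, in order on the horizontal axis, where the called genes are named (circles, large subunit; squares, small subunit; red, called). The dashed line marks the median of these genes, −0.29, and the dotted line that of all tested genes, −0.03; the 14 called genes are all at the lower end with TMM scaling.

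The mice did not contribute equally. The median log2 ratio of RFPpos to RFPneg over the 78 genes, taken on CPM with 5 added, was −0.19 in mouse 1, −0.16 in mouse 2, −0.38 in mouse 3, −0.10 in mouse 4 and −0.71 in mouse 5. It was below the median of all tested genes in each mouse, which lay between −0.05 and 0.01. In mouse 4, 44 of the 78 genes were lower in RFPpos, and in mice 3 and 5 there were 68. Without mouse 3 the number of genes called fell from 14 to 6, and without mouse 5 to 8, with a median log2 fold change of −0.18 without mouse 5. Without mouse 3, 7.69% of the ribosomal protein genes tested were called lower, against 8.61% of all genes tested, and without mouse 5 10.4% against 10.4%, so that the family was not called more often than all genes in either. Without mouse 4, 17 were called, 22.4% of those tested, against 10.4% of all genes.

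**Figure D3:**
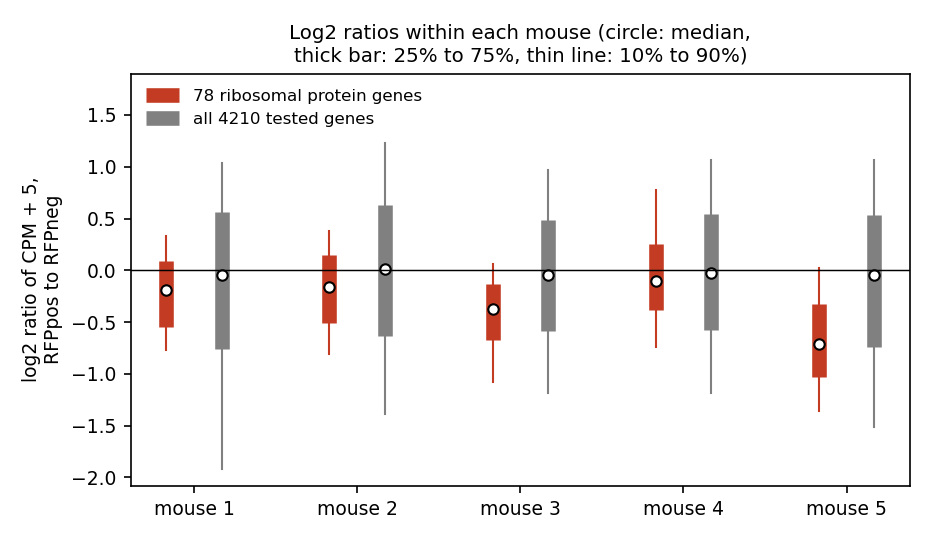
Log2 ratio of CPM plus 5 in RFPpos to RFPneg, on the vertical axis, within each of the 5 mice, for the 78 ribosomal protein genes (red) and all 4210 tested genes (grey); circles are medians, thick bars hold the middle 50% of genes and thin lines the middle 80%. The ribosomal protein genes sit lowest in mouse 5, at a median of −0.71, and nearest to all genes in mouse 4, at −0.10.

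Among the small subunit genes, *Rps15a* (ENSMUSG00000008683; chromosome 7, 118104372 to 118116188, minus strand; all coordinates are those of genes in GRCm38) had the smallest p of the family. Its RFPneg samples of mice 1 to 5 had 442, 435, 538, 539.7 and 515 CPM, and its RFPpos samples 291, 339.8, 281, 319 and 171 CPM. All RFPpos samples lay below all RFPneg samples, and mouse 5 was the lowest. It fell from 494 ± 51.4 to 280.2 ± 65.5 CPM (SD, n = 5 each; log2 fold change −0.84, standard error 0.20, edgeR adjusted p = 0.00470, lower in 5 of 5 mice).

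*Rps28* (ENSMUSG00000067288; chromosome 17, 33819027 to 33824562, minus strand) encodes a protein near the site where the messenger RNA leaves the small subunit. It had 425, 371, 405, 346 and 297 CPM in the RFPneg samples of mice 1 to 5 and 261, 224, 297, 189.7 and 137 CPM in the RFPpos samples. It was lower in 5 of 5 mice, although the RFPpos sample of mouse 3 lay just above the RFPneg sample of mouse 5 (log2 fold change −0.76, standard error 0.19, edgeR adjusted p = 0.00637, lower in 5 of 5 mice). The other genes of the exit site, *Rps14*, *Rps26* and *Rpsa*, were not called. *Rps26*, which is named after its values were seen, had 584, 554, 715, 662 and 632 CPM in the RFPneg samples and 533, 459, 541, 524 and 358 CPM in the RFPpos samples. Its groups did not overlap, and it was the only tested gene of the family of which this held without a call (log2 fold change −0.39, standard error 0.18, edgeR adjusted p = 0.126, lower in 5 of 5 mice). *Rpsa*, which encodes a ribosomal protein also described as a laminin receptor, had 56.6 ± 18.3 CPM in RFPneg and 45.3 ± 24.6 CPM in RFPpos (SD, n = 5 each; log2 fold change −0.36, standard error 0.42, edgeR adjusted p = 0.611, lower in 3 of 5 mice).

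*Rps15* (ENSMUSG00000063457; chromosome 10, 80292453 to 80294114, plus strand), whose protein reaches towards the decoding site, had the lowest log2 fold change of the family. Its level was 142, 158, 131, 181 and 134 CPM in the RFPneg samples and 78.9, 88.4, 54.5, 148 and 25.6 CPM in the RFPpos samples of mice 1 to 5. It was lower in RFPpos in 5 of 5 mice, but mouse 4 stayed high and its RFPpos sample lay within the RFPneg range (log2 fold change −1.01, standard error 0.28, edgeR adjusted p = 0.0146, lower in 5 of 5 mice). Without mouse 3 the adjusted p was 0.0609 and without mouse 5 it was 0.0531 (edgeR; from 1.29e-05 to 0.0609 over all alternatives). Such ranges, here and below, include the scaling to the 20 microglia genes, with its built-in shift of all genes by −1.07. Their lower ends therefore do not stand for a stronger difference. *Rps2*, *Rps3* and *Rps23*, the other genes of the entry and decoding site, were not called.

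*Rps19* (ENSMUSG00000040952; chromosome 7, 24884371 to 24889806, plus strand), the gene most often mutated in Diamond-Blackfan anaemia, had 329, 317, 446, 261 and 456 CPM in the RFPneg samples and 178, 184, 109, 299.8 and 256 CPM in the RFPpos samples. It was lower in 4 of 5 mice and higher in mouse 4, where the RFPneg sample was the lowest of its group (log2 fold change −0.85, standard error 0.25, edgeR adjusted p = 0.0193, lower in 4 of 5 mice). The adjusted p was 0.0561 without mouse 2 and 0.133 without mouse 3 (edgeR; from 2.21e-05 to 0.133 over all alternatives).

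Of the 2 most abundant small subunit genes, 1 was called. *Rps21* (ENSMUSG00000039001; chromosome 2, 180257377 to 180258445, plus strand) had 2138, 1845, 2241, 1763 and 2219.9 CPM in the RFPneg samples of mice 1 to 5 and 1449.9, 1512, 1399, 1245 and 879 CPM in the RFPpos samples. The groups did not overlap, and mouse 5 was the lowest RFPpos sample (log2 fold change −0.67, standard error 0.18, edgeR adjusted p = 0.0119, lower in 5 of 5 mice). The adjusted p was 0.0520 without mouse 3 and 0.0515 without mouse 5 (edgeR; from 7.86e-07 to 0.0520 over all alternatives). *Rps29* had 1849, 1870.1, 2069, 2391 and 1962 CPM in the RFPneg samples and 1706, 1767, 1948, 1753 and 1186 CPM in the RFPpos samples. It was also lower in 5 of 5 mice, but mouse 3 in RFPpos lay within the RFPneg range and it was not called (log2 fold change −0.29, standard error 0.17, edgeR adjusted p = 0.256, lower in 5 of 5 mice). The difference between *Rps21* and *Rps29* was not tested.

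*Rps6*, whose protein is phosphorylated downstream of mTOR, had 46.7 ± 8.57 CPM in RFPneg and 35.5 ± 19.2 CPM in RFPpos (SD, n = 5 each; log2 fold change −0.48, standard error 0.42, edgeR adjusted p = 0.476, lower in 3 of 5 mice), with 64 and 43 counts, and was not called. *Rps27a*, which encodes ubiquitin joined to a ribosomal protein, had 455 ± 51.0 and 400.2 ± 58.7 CPM (SD, n = 5 each; log2 fold change −0.19, standard error 0.19, edgeR adjusted p = 0.530, lower in 3 of 5 mice). *Rps3a1* had one of the highest log2 fold changes of the family, and was not called (log2 fold change 0.15, edgeR adjusted p = 0.725, lower in 2 of 5 mice).

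On the large subunit, the acidic stalk that binds elongation factors is built from *Rplp0*, *Rplp1* and *Rplp2*. *Rplp2* (ENSMUSG00000025508; chromosome 7, 141447370 to 141451585, plus strand) had 544, 489.8, 548, 430.1 and 531 CPM in the RFPneg samples of mice 1 to 5 and 321, 326, 402, 254 and 252 CPM in the RFPpos samples. The groups did not overlap, and every mouse was lower in RFPpos (log2 fold change −0.72, standard error 0.18, edgeR adjusted p = 0.00682, lower in 5 of 5 mice). Its partner *Rplp1*, which forms a dimer with it, had 1299, 1316, 1468, 1855 and 1473 CPM in the RFPneg samples and 1332, 1407, 1466, 1412 and 806 CPM in the RFPpos samples. It was lower in 3 of 5 mice, and mouse 5 stood far below the other RFPpos samples (log2 fold change −0.22, standard error 0.18, edgeR adjusted p = 0.439, lower in 3 of 5 mice). *Rplp0*, the base of the stalk, had 170.0 ± 28.7 and 134 ± 38.6 CPM (SD, n = 5 each; log2 fold change −0.37, standard error 0.24, edgeR adjusted p = 0.309, lower in 4 of 5 mice). With *Rpl12*, 1 of the 4 stalk genes was called, with a median log2 fold change of −0.33.

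*Rpl41* (ENSMUSG00000093674; chromosome 10, 128548114 to 128549305, minus strand), which encodes the shortest protein of the ribosome, had 323, 247, 393, 211 and 297 CPM in the RFPneg samples and 182, 126, 218, 182 and 145 CPM in the RFPpos samples. It was lower in 5 of 5 mice, and only the RFPpos sample of mouse 3 reached into the RFPneg range (log2 fold change −0.78, standard error 0.20, edgeR adjusted p = 0.00857, lower in 5 of 5 mice). *Rps15a*, *Rps28*, *Rplp2* and *Rpl41* were called in each of the 18 alternative fits. None of them was called in the main fit when a log2 fold change above 1 in size was also required. The 2 genes that were, *Rps15* and *Rps27l*, lost their call in other fits. Of the windows at the end of their transcripts, 64.3% for *Rpl41*, 50% for *Rplp2*, 37.3% for *Rps15a* and 22.6% for *Rps28* also occurred in other genes.

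*Rpl5* and *Rpl11*, which with an RNA form the particle that binds Mdm2 when ribosome assembly is disturbed, were not called. *Rpl11* had 346, 351, 339, 363 and 352 CPM in the RFPneg samples and 414, 336, 411, 338 and 307 CPM in the RFPpos samples. Its RFPneg samples were close to each other and lay within the RFPpos range (log2 fold change 0.04, standard error 0.18, edgeR adjusted p = 0.929, lower in 3 of 5 mice). *Rpl5* had 198, 129, 102, 126 and 111 CPM in RFPneg and 88.8, 98.6, 92.2, 137 and 42.7 CPM in RFPpos. It was lower in 4 of 5 mice, and mouse 1 was high in RFPneg (log2 fold change −0.54, standard error 0.27, edgeR adjusted p = 0.178, lower in 4 of 5 mice). Neither was called with DESeq2 or limma-voom, or had an unadjusted p under 0.05 with edgeR. The same held for the 9 genes around the tunnel through which the new protein leaves, which had a median of −0.13. *Rpl15*, of 49 and 43 counts, was among the highest log2 fold changes of the family and was not called (log2 fold change 0.16, edgeR adjusted p = 0.897, lower in 2 of 5 mice).

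The other 5 called genes, which the naming rule left out and which are named here after their values were seen, were *Rpl38*, *Rpl32* and *Rpl37a* of the large and *Rps16* and *Rps20* of the small subunit. Their log2 fold changes lay between −0.80 for *Rpl38* and −0.52 for *Rpl37a*. All 5 were lower in 5 of 5 mice, and the calls of all 5 depended on single mice. *Rpl32* and *Rpl37a* also lost their call with DESeq2. With every counted gene tested, *Rpl32*, *Rpl37a*, *Rps16* and *Rps20* lost it, and *Rpl37a* did so without TMM as well. *Rpl37a* (log2 fold change −0.52, edgeR adjusted p = 0.0461, lower in 5 of 5 mice) had an adjusted p of 0.121, 0.0863, 0.103 and 0.166 without mouse 1, 2, 3 and 5 (edgeR; from 2.35e-06 to 0.209 over all alternatives). *Rpl32* (log2 fold change −0.68, edgeR adjusted p = 0.0146, lower in 5 of 5 mice) had 0.0505, 0.0518 and 0.0548 without mouse 1, 3 and 5 (edgeR; from 2.12e-06 to 0.0840). *Rps16* (log2 fold change −0.71, edgeR adjusted p = 0.0156, lower in 5 of 5 mice) had 0.0665 and 0.0841 without mouse 1 and 3 (edgeR; from 3.36e-06 to 0.0841). *Rps20* (log2 fold change −0.58, edgeR adjusted p = 0.0194, lower in 5 of 5 mice) had 0.0695 without mouse 3 (edgeR; from 2.11e-06 to 0.0970), and *Rpl38* (log2 fold change −0.80, edgeR adjusted p = 0.0117, lower in 5 of 5 mice) had 0.0594 without mouse 5 (edgeR; from 4.04e-06 to 0.0594).

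**Figure D4:**
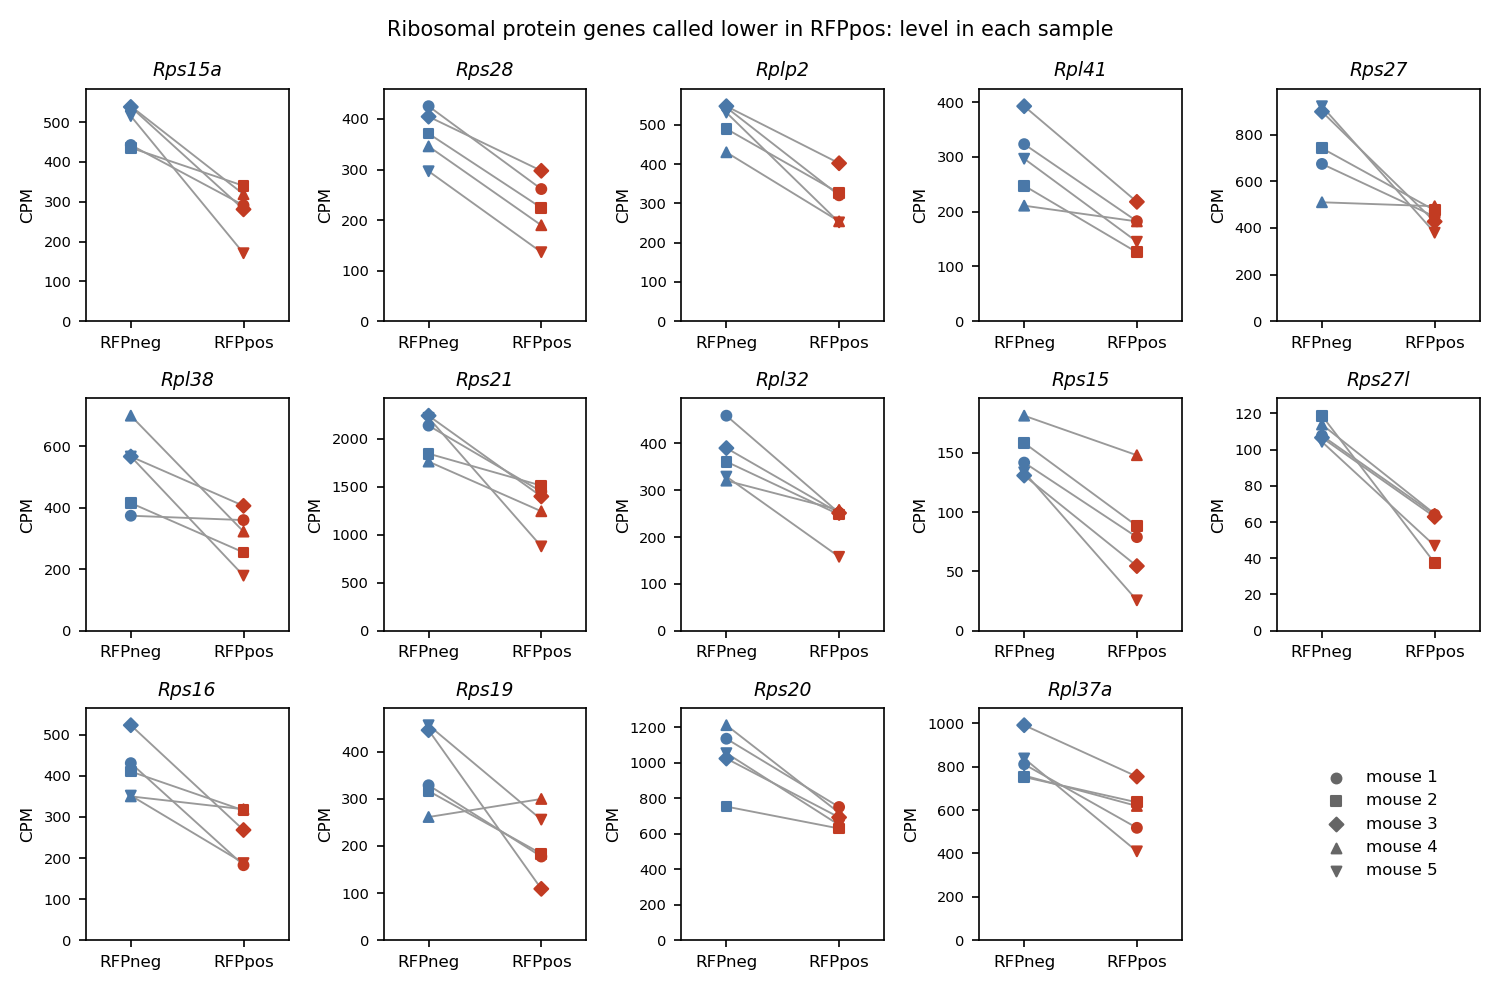
Level in CPM, on the vertical axes, of the 14 ribosomal protein genes called lower in RFPpos, in order of their p, for the RFPneg (blue) and RFPpos (red) sample of each mouse, joined by lines. All lines fall but 1, that of *Rps19* in mouse 4, from 261 to 299.8 CPM.

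Several members have a second gene for a closely related protein. *Rps27l* (ENSMUSG00000036781; chromosome 9, 66946086 to 66949516, plus strand), a paralog of *Rps27* that p53 is known to induce, had 108, 119, 107, 114 and 104 CPM in the RFPneg samples and 64.1, 37.4, 62.9, 64.5 and 46.9 CPM in the RFPpos samples of mice 1 to 5. Its RFPneg samples were close to each other and all RFPpos samples lay far below them (log2 fold change −1.01, standard error 0.29, edgeR adjusted p = 0.0153, lower in 5 of 5 mice). The adjusted p was 0.0854 without mouse 2 with edgeR, 0.0506 with DESeq2 and 0.0623 with every counted gene tested (from 3.22e-05 to 0.0854 over all alternatives).

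*Rps27* itself (ENSMUSG00000090733; chromosome 3, 90212522 to 90213651, minus strand) had 675, 742, 899, 510.2 and 923 CPM in the RFPneg samples and 449, 476, 427, 493 and 379.7 CPM in the RFPpos samples. The groups did not overlap, and the difference was smallest in mouse 4 (log2 fold change −0.73, standard error 0.20, edgeR adjusted p = 0.0115, lower in 5 of 5 mice). The adjusted p was 0.0751 without mouse 3 and 0.0542 without mouse 5 (edgeR; from 2.07e-06 to 0.0751 over all alternatives). Another gene of this kind, *Rps27rt*, had 36 counts in RFPneg and 9 in RFPpos and was not tested. Of the windows at the end of their transcripts, 78.9% for *Rps27* and 80.8% for *Rps27rt* also occurred in other genes, so that their counts are uncertain, but 0% for *Rps27l*.

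The other paralogs were not called. *Rpl22l1* had 51.6 ± 24.2 CPM in RFPneg and 30.1 ± 19.2 CPM in RFPpos (SD, n = 5 each; log2 fold change −0.82, standard error 0.54, edgeR adjusted p = 0.322, lower in 3 of 5 mice), and its parent *Rpl22* 407 ± 41.4 and 365 ± 76.3 CPM (SD, n = 5 each; log2 fold change −0.18, standard error 0.18, edgeR adjusted p = 0.547, lower in 3 of 5 mice). *Rpl7l1* (log2 fold change −0.30, edgeR adjusted p = 0.681, lower in 3 of 5 mice) and its parent *Rpl7* (log2 fold change 0.02, edgeR adjusted p = 0.976, lower in 2 of 5 mice) had overlapping groups. *Rpl36al* (log2 fold change −0.17, edgeR adjusted p = 0.776, lower in 3 of 5 mice) and its parent *Rpl36a* (log2 fold change −0.15, edgeR adjusted p = 0.647, lower in 3 of 5 mice) were close to each other in log2 fold change. *Rpl3l*, a gene of muscle, and *Rpl10l*, a gene of the testis, had 0 counts in all 10 samples, and *Rpl39l* had 2 counts, both in the RFPpos sample of mouse 1. Their parents were detected and not called. These were *Rpl3* (log2 fold change −0.23, edgeR adjusted p = 0.663, lower in 3 of 5 mice), *Rpl10* (log2 fold change −0.17, edgeR adjusted p = 0.737, lower in 3 of 5 mice) and *Rpl39* (log2 fold change −0.48, edgeR adjusted p = 0.161, lower in 4 of 5 mice). *Rps4l* is annotated as a pseudogene and was not a member, and *Rps4x* was not called (log2 fold change −0.20, edgeR adjusted p = 0.714, lower in 3 of 5 mice). The 7 genes that were not tested were *Rpl3l*, *Rpl10l*, *Rpl39l*, *Rps27rt*, *Rpl10a*, *Rpl24* and *Rpl36*, the last 3 with 28, 1 and 77 counts.

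The fold changes were then set beside features that the choice of members did not use. Among all tested genes, 11.6% were called lower. Of the 13 tested genes with a TOP motif at an annotated start, 5 (38.5%) were called lower, with a median of −0.32. Of the 46 matched genes without one there, 7 (15.2%) were, with a median of −0.30. Starts other than the annotated ones were not examined. With CCGGAAG the figures were 5 of 25 genes (20%) and −0.32, and without it 7 of 34 (20.6%) and −0.30. Of the 17 tested genes without any copied window at the end of their transcripts 4 (23.5%) were called, with a median of −0.33. The 27 with more than 50% of windows copied had 4 called (14.8%) and a median of −0.23, and the 34 between them 6 (17.6%) and −0.27. Of the 39 genes above the median level of the family 11 (28.2%) were called, and of the 39 others 3 (7.69%), with medians of −0.32 and −0.23. A gene with more counts is more easily called, and none of these differences was tested.

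Other genes of translation were counted in 6 lists. Among 64 tested genes of these lists, 5 (7.81%) were called lower and 0 higher with edgeR, against 11.6% and 10.1% of all genes, a difference that was not tested. Of the 64, 13 were lower and 3 higher at an unadjusted p under 0.05 with edgeR, against 743 and 648 of all 4210 genes. With DESeq2 0 were called higher, and with limma-voom 1, *Pabpc1*. *Pabpc1*, *Eef1a1*, *Eef2k*, *Rack1* and *Fau* are named after their values were seen. *Rack1* and *Fau* encode proteins of the ribosome whose symbols the choice of members did not take. None of the 3 ribosome-associated genes was called with edgeR or DESeq2, with 2 lower at an unadjusted p under 0.05 and 1, *Rack1*, called lower with limma-voom. *Rack1*, which sits on the small subunit, had 451 ± 58.5 CPM in RFPneg and 322 ± 61.2 CPM in RFPpos (SD, n = 5 each; log2 fold change −0.50, standard error 0.19, edgeR adjusted p = 0.0757, lower in 5 of 5 mice). *Fau* was not called either (log2 fold change 0.07, edgeR adjusted p = 0.887, lower in 3 of 5 mice). None of 7 tested genes of the elongation list was called with edgeR, DESeq2 or limma-voom, at a median of −0.04. The 1 gene higher at an unadjusted p under 0.05 with edgeR was *Eef2k*, which encodes a kinase and not a factor. *Eef1a1*, whose messenger RNA is also described as a TOP transcript, was in this list and not called (log2 fold change −0.04, edgeR adjusted p = 0.917, lower in 3 of 5 mice). Of 23 initiation factor genes 1 (4.35%) was called lower, with a median of −0.23: *Eif1*, which helps the small subunit choose the start codon, fell from 194 ± 48.5 to 113 ± 34.4 CPM (SD, n = 5 each; log2 fold change −0.80, standard error 0.22, edgeR adjusted p = 0.0122, lower in 5 of 5 mice). Its adjusted p was 0.0515 with DESeq2 (from 5.53e-06 to 0.0734 over all alternatives).

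Of 8 tested genes with other TOP transcripts 2 were called lower, with a median of −0.50. *Gas5*, a noncoding host of small nucleolar RNAs, had 516, 524, 598, 485 and 632 CPM in the RFPneg samples and 306, 309, 259.8, 353 and 397 CPM in the RFPpos samples. The groups did not overlap (log2 fold change −0.77, standard error 0.18, edgeR adjusted p = 0.00445, lower in 5 of 5 mice). *Vim*, which encodes the filament protein vimentin and is high in endothelial cells and reactive glia, was called as well (log2 fold change −1.59, edgeR adjusted p = 0.00363, lower in 5 of 5 mice). Its adjusted p was 0.0641 with DESeq2 (from 5.74e-07 to 0.0641 over all alternatives). In the ribosome biogenesis list 1 of 11 tested genes (9.09%) was called lower, *Dkc1*, the pseudouridine synthase of box H/ACA particles, with 109 ± 24.2 and 47.2 ± 26.1 CPM (SD, n = 5 each; log2 fold change −1.26, standard error 0.31, edgeR adjusted p = 0.00560, lower in 5 of 5 mice), and the median of the list was 0.04. Among 12 regulators of TOP translation 1 (8.33%) was called lower, *Ddit4*, an inhibitor of mTOR signalling that stress induces, with 92.3 ± 28.7 and 23.7 ± 11.1 CPM (SD, n = 5 each; log2 fold change −1.97, standard error 0.41, edgeR adjusted p = 0.00176, lower in 5 of 5 mice), at a median of −0.27. Of 78 mitochondrial ribosomal protein genes only 5 were tested and none was called with edgeR, DESeq2 or limma-voom, with 1 lower at an unadjusted p under 0.05 and 1 called lower by the likelihood ratio test. Together the 78 held 0.204% ± 0.0169 (SD, n = 5) of the counts in RFPneg and 0.159% ± 0.0306 (SD, n = 5) in RFPpos, lower in 5 of 5 mice, and the groups overlapped.

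Marker genes of several cell types also differed between the populations. The 20 microglia genes, led by *Ctss*, held 2.69, 1.81, 1.92, 1.74 and 2.52% of the counts in the RFPneg samples of mice 1 to 5 and 4.98, 4.36, 4.61, 4.47 and 3.82% in the RFPpos samples, higher in 5 of 5 mice. The oligodendrocyte list held 1.86, 1.31, 0.762, 0.487 and 0.877% and 0.0602, 0.144, 0.191, 0.195 and 0.339%, with all 9 tested genes called lower. The endothelial list, led by *Flt1*, held 0.181, 0.568, 0.596, 0.755 and 0.451% and 0.00899, 0.0173, 0.0197, 0.0367 and 0.0255%, also with 9 of 9 lower. The neutrophil list, led by *S100a8*, held 0.253, 0.273, 0.719, 0.428 and 0.234% and 0.00494, 0.0104, 0.0193, 0 and 0%, with 5 of 5 lower and *Ltf* and *Ly6g* at 0 in RFPpos. In these 3 lists all RFPpos samples lay below all RFPneg samples. The choroid plexus and ependymal list, led by *Ttr*, held 0.126% to 0.656% in RFPneg and 0.0273% to 0.195% in RFPpos (2 of 2 lower), with *Ccdc153* and *Tmem212* at 0. The astrocyte list, led by *Slc1a2*, held 0.362% to 0.537% and 0.0912% to 0.553% (2 of 8 lower). The olfactory ensheathing list, which shares 1 gene with the oligodendrocyte list, held 0.374% to 1.51% and 0.0324% to 0.496% (2 of 5 lower and 2 higher). The groups overlapped in the choroid plexus, astrocyte and olfactory ensheathing lists.

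Among blood cells, erythroid genes, led by *Hbb-bs*, held 0.0394% to 0.194% and 0% to 0.0117% in RFPneg and RFPpos (1 of 1 tested lower), with *Alas2* at 0 in RFPpos. Monocyte genes, led by *Fn1*, held 0.0400% to 0.0694% and 0.000412% to 0.00519% (3 of 3 lower), with *Ly6c2* and *Chil3* at 0 in RFPpos, and B cell genes, led by *Ighm*, 0.0372% to 0.0697% and 0.0180% to 0.0271% (*Igkc* called lower and *Ighm* not called), with *Cd79a* at 0. The 7 T and NK cell genes, led by *Trbc2*, held 0.00306% to 0.0153% in RFPneg and were all at 0 in RFPpos, with none tested. In all of these lists of blood cells the groups did not overlap. Neuron genes, led by *Meg3*, held 0.0254% to 0.0503% and 0.00838% to 0.0276% (1 of 3 lower), and oligodendrocyte progenitor genes, led by *Vcan*, 0.00601% to 0.0138% and 0% to 0.00269%, with none tested and *Pdgfra*, *Cspg4* and *Tnr* at 0 in RFPpos. Mural genes, led by *Vtn*, held 0.0243% to 0.0515% and 0.00135% to 0.0112% (2 of 2 lower), with *Kcnj8*, *Tagln*, *Myh11* and *Cspg4*, which the progenitor list also holds, at 0. Fibroblast genes, led by *Igf2*, held 0.0167% to 0.0386% and 0.000449% to 0.0176% (1 of 2 lower), with *Col3a1* and *Lum* at 0, and border macrophage genes, led by *Mrc1*, 0.0166% to 0.0217% and 0.0128% to 0.0311%, with 1 tested and not called. The groups overlapped in the neuron, fibroblast and border macrophage lists. The part of these cells in the lower ribosomal protein counts was not tested.

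Shares that bear on RNA quality were set beside these values. Reads on no gene made up 35.5, 33.1, 32.1, 36.7 and 37.2% of the reads in the RFPneg samples of mice 1 to 5 and 38.4, 42.1, 38.5, 39.8 and 48.6% in the RFPpos samples. The RFPpos sample of mouse 5, which had the lowest ribosomal protein share, had the highest share of reads on no gene. *Gm42418*, a transcript that overlaps ribosomal RNA repeats, took 4.52% ± 0.519 (SD, n = 5) of the counts in RFPneg and 8.34% ± 2.01 (SD, n = 5) in RFPpos. Mitochondrially encoded genes took 17% ± 1.35 and 15.5% ± 3.18, and *Malat1*, a nuclear transcript, 2.94% ± 0.781 and 2.61% ± 0.800 (SD, n = 5 each). *Gm42418* and both mitochondrial ribosomal RNA genes were then left out of the counts, a setting chosen after seeing the data. The same 14 ribosomal protein genes were called lower. The mean difference in share was −0.67 percentage points, but of a smaller total of counts. As a percent of the RFPneg mean, the change was −17.5%, against −19.6% with all genes counted. The part of RNA quality in these differences was not tested.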

How the data were processed

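Bulk libraries of 10 samples, an RFPneg and an RFPpos sample from each of 5 mice, were used. The 2 single-cell samples were left out, since no counts of them were at hand, and each of their groups has 1 sample. Per the methods, the authors made 3′ libraries with a Lexogen QuantSeq kit, ran Lexogen's pipeline for forward reads with molecular identifiers, and used a likelihood ratio test of edgeR with mouse as a covariate. The deposited values are counts per gene for each sample, not normalized by the authors. The submitters' processing notes name mm10; the aligner and annotation of the bulk data are not given in the sources used here. The lines for reads on no gene, 32.1% to 48.6% of reads, and for ambiguous reads, 0.295% to 0.436%, stayed out of library sizes. With 177287 to 415834 counts on genes per sample, 10 counts are between 24 and 56 CPM.

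Symbols were found for 47224 of 47643 identifiers in GENCODE M21 (GRCm38). Genes were filtered with filterByExpr (minimum count 10, minimum total 15), scaled with TMM and tested with edgeR 4.0.16 in R 4.3.3 (glmQLFit, glmQLFTest) with the mouse as a block. The standard error is the size of the log2 fold change divided by the root of F. The test was checked on simulated counts, where it called 3 of 4100 genes without a difference. At a true log2 fold change of 0.5 in size it called 2 of 63 genes, at 1 37 of 64 and at 2 67 of 67. A gene not called can thus still differ by a small fold. The spread of the simulated counts was set and not taken from the data, so that these rates need not hold for the data. The pairing comes from the labels and methods, which give both populations of a number the same mouse, and how far both samples of a mouse moved together, as the correlation across genes of their departures from the mean of each group, was 0.220, −0.0378, 0.142, −0.005 and 0.0145. The members and lists were chosen with earlier results of these data known. Genes named are, of those called, the 5 with the smallest p in each direction, the 3 highest and 3 lowest by level and by fold change, the stalk genes, *Rpsa*, *Rpl5*, *Rpl11*, *Rps6*, *Rps27a*, paralogs with their parents, the 2 called genes of smallest p in each direction of the other lists, and the most abundant gene of each marker list, with some of these not reported here. Promoters are from RefSeq. Alternatives were other scalings, no count filter, no mouse block, an edgeR likelihood ratio test, DESeq2 1.42.0, limma-voom (limma 3.58.1), a fold threshold, each mouse left out, pseudogene counts added and counts thinned to 177287. Protein sequences were not used here.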

Additional observations from a re-analysis of the deposited data

Results flagged for a closer look

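In 144 groups of 5 samples, each of 1 population, the sample at either end was compared with its neighbour relative to the range of the group, at a level that chance passes in about 1 of 20 groups, or 7.2 of these. It did so in 5. *Rplp1* had 806 CPM in the RFPpos sample of mouse 5, against 1332 to 1467 CPM in the other RFPpos samples. *Rpl5* had 198 CPM in the RFPneg sample of mouse 1, against 102 to 129 CPM in the other RFPneg samples. *Rpl32* had 158 CPM in the RFPpos sample of mouse 5, against 248 to 258 CPM in the others. *Eif1* had 277 CPM in the RFPneg sample of mouse 2, against 159 to 191 CPM in the others. The choroid plexus and ependymal genes took 0.195% of the counts in the RFPpos sample of mouse 4, against 0.0273% to 0.0626% in the other RFPpos samples. The causes were not tested.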

How the results depend on the processing

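The scaling changed the number of calls most. With totals set by 20 microglia genes, 77 ribosomal protein genes were called lower at a median log2 fold change of −1.37, with 2953 of all genes lower and 11 higher (99.6% of calls lower, against 53.4% with TMM) and 56 genes of the translation lists lower; the shift of all genes by −1.07 is built into this scaling. The median of the family less that of all genes was −0.27 with TMM and −0.27 with this scaling, but −0.16 without mouse 5 and 0.04 with every counted gene tested. With totals that include reads on no gene, 283 of all genes were higher and 581 lower (67.2% of calls lower). With every counted gene tested, 9 ribosomal protein genes and 834 of all genes were lower and 1 translation gene, *Polr1a*, was higher, among 18571 genes. With a log2 fold change above 1 also required, 2 ribosomal protein genes (2.56% of those tested) and 385 of all genes (9.14%) were lower, and 242 of all genes higher. DESeq2 called 3 translation genes lower, and limma-voom 1 higher. With each mouse left out in turn, 6 to 17 ribosomal protein genes were lower, and 0 to 1 translation genes higher. The 17, without mouse 4, were 22.4% of those tested, against 10.4% of all genes. The 6, without mouse 3, were 7.69%, against 8.61% of all genes, and the 8 without mouse 5 were 10.4%, against 10.4%, so that the family was not called more often than all genes in these 2 fits. The cause was not tested.

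Without the mouse as a block, 14 ribosomal protein genes were called lower, 13 of them called with it, with 482 of all genes lower and 435 higher, so that the pairing changed no count by over 1.5 times; *Rpl37a* was lost. The share of the family was lower in RFPpos under every denominator tried and with each mouse left out, by 0.419 to 0.806 percentage points. Percentage points of unlike denominators cannot be compared in size. As a percent of the RFPneg mean, the change was −19.6% in the main setting and from −17.5% to −27.2% with the other denominators.

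Of 804 values of 45 genes under alternatives, none of those called changed sign, 34 lost their call and 27 gained one, 25 of them with the microglia scaling and 2 with limma-voom. At most 415834 counts fell on genes in a sample, and *Rps6* and *Rpl15* had few of them.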
